A study of Mus musculus with 6 samples.

Results

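Variable segments of the immunoglobulin genes that had reads were followed in haematopoietic stem cells (HSCs), the self-renewing cells of the marrow from which all blood cells arise. Segments were chosen by their symbols (Ighv for the heavy chain, Igkv for the kappa and Iglv for the lambda light chain) and by a value above 0 in at least 1 of 6 libraries. They numbered 37 of the 348 variable segments, or 10.6%, in a table of 47937 genes. The donors of both groups were wild type C57BL/6 mice of 8 weeks, male per the protocol, whose marrow was depleted of lineage-positive cells. Cells of the LSK gate that lacked CD34, CD48 and Flt3 and carried Slam1 were sorted, and polyadenylated RNA was sequenced. Those with the surface receptor CD93 (CD93pos) and those without it (CD93neg) gave 3 libraries each. The labels call these biological replicates without saying which animals gave which library, so p-values measure only the spread between these libraries. The question behind the sort is what sets apart the transcripts of the CD93pos cells.

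An immunoglobulin chain gene is assembled in developing B cells, when the RAG recombinase joins 1 variable segment to a joining segment, with a diversity segment between them in the heavy chain. The promoter of the chosen segment is then brought near the enhancers of the locus, and the joined segment is transcribed together with a constant gene. The cells of a B cell clone thus share the joined segments, which need not be theirs alone. HSCs carry these loci unrearranged. In bulk libraries, fewer cells of a type and less RNA per cell cannot be told apart, and which heavy and light segments share a cell is not recorded.

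The sequences of the 5 segments with over 500 reads are given first, because nearly all reads of the group fell on them and because near-identical neighbours can share reads. They are the reference sequences of GENCODE M21 transcripts on GRCm38, not the rearranged sequences of these cells, and show at most the last 300 bases of the exon that encodes the variable domain, read 5′ to 3′ on the strand of the gene. Capitals mark bases that differ from, or have no counterpart in, the most similar other segment of the same chain.
Igkv8-30: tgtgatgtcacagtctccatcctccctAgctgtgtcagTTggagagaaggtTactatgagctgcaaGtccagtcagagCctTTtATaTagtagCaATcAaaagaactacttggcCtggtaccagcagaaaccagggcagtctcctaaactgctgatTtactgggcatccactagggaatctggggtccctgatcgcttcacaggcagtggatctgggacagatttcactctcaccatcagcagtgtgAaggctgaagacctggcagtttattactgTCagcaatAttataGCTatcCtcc
Ighv1-55: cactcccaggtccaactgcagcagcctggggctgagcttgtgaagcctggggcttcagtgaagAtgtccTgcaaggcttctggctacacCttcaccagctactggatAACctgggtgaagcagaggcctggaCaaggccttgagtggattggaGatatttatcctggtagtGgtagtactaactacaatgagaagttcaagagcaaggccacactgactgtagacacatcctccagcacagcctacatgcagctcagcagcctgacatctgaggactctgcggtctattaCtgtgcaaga
Igkv14-126: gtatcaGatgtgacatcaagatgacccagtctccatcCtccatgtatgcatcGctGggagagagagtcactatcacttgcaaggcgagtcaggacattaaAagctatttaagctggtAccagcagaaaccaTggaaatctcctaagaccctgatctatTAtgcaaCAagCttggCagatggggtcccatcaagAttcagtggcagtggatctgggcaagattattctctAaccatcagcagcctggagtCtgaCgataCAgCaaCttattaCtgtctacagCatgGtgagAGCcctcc
Ighv11-2: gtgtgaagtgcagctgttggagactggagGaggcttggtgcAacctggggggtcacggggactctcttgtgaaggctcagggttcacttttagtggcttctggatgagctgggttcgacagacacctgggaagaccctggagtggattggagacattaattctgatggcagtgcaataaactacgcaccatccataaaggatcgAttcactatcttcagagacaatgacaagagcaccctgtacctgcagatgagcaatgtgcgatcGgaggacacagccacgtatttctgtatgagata
Iglv1: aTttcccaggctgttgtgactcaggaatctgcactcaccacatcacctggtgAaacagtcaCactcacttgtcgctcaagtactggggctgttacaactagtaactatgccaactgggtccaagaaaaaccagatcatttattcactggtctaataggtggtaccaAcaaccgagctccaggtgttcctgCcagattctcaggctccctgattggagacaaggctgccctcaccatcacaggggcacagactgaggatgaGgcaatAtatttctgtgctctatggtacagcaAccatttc
Igkv8-30 is shown from chr6:70117061-70117360 (minus strand), Ighv1-55 from chr12:115208095-115208394 (minus strand), Igkv14-126 from chr6:67896345-67896642 (plus strand), Ighv11-2 from chr12:114048241-114048540 (minus strand) and Iglv1 from chr16:19085017-19085316 (minus strand). The nearest segments were Igkv8-21 for Igkv8-30 (93% identity), Ighv1-62 for Ighv1-55 (97% identity), Igkv14-111 for Igkv14-126 (90.9% identity), Ighv11-1 for Ighv11-2 (98.7% identity) and Iglv2 for Iglv1 (97% identity). Of the stretches of 50 bases, the read length, in their transcripts, 80.9% in Igkv8-30, 62% in Ighv1-55, 100% in Igkv14-126, 61.4% in Ighv11-2 and 77.8% in Iglv1 occurred in no other annotated gene.

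Libraries stood apart in ways that touch these values. Assigned reads numbered 2832653 to 4614396 per CD93neg library and 5794528 to 9509304 per CD93pos library, and CD93neg replicate 1 had reads for 4429 genes against 10752 to 17334 in the others. The labels describe male mice, but the CD93neg libraries had 1 read in all for Ddx3y, Eif2s3y, Kdm5d and Uty on the Y chromosome, whereas each CD93pos library had reads for all 4. Reads of Xist numbered 0, 2419 and 1143 in the CD93neg replicates and 0, 0 and 12 in CD93pos. A difference in donor sex or source between the groups cannot be told apart from one in CD93. Groups are those of the labels, and directions below are between libraries labelled CD93pos and CD93neg. Of the HSC markers, 10 of 10 were read in each library but CD93neg replicate 1, where 5 were.

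The segments were read mainly in 2 of the 6 libraries, CD93neg replicates 2 and 3. CD93neg replicate 1 had reads for 0 of the 37 segments, replicate 2 for 13 and replicate 3 for 17. CD93pos replicates 1, 2 and 3 had reads for 6, 1 and 2 of them. The groups overlapped, because CD93neg replicate 1 lay below every CD93pos library. Reads of all segments summed to 0, 15234 and 28192 in the CD93neg libraries, which is 0, 3301 and 9388 CPM (reads per 1000000 assigned reads of the library), and to 15, 1 and 19 in the CD93pos libraries, which is 1.58, 0.173 and 2.66 CPM. The means were 4230 ± 4762 CPM in CD93neg and 1.47 ± 1.25 CPM in CD93pos (SD, n = 3 each). By counting error alone, a count of 0 in CD93neg replicate 1 allows up to 1.06 CPM, taking 3 reads as the limit. This lies within the range of the CD93pos libraries. That library also had no read of Ly6a, Procr, Slamf1 and Mllt3, HSC markers read in each other library, so the limit can be too low. Over the summed libraries CD93neg had 4156 CPM and CD93pos 1.56 CPM, a ratio of 2666, or 1313 without CD93neg replicate 3. Thinned to the 2832653 reads of the shallowest library, the expected numbers of segments read were 13 and 16.9 in CD93neg replicates 2 and 3 and 3.2, 0.489 and 1.87 in the CD93pos libraries.

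**Figure D1:**
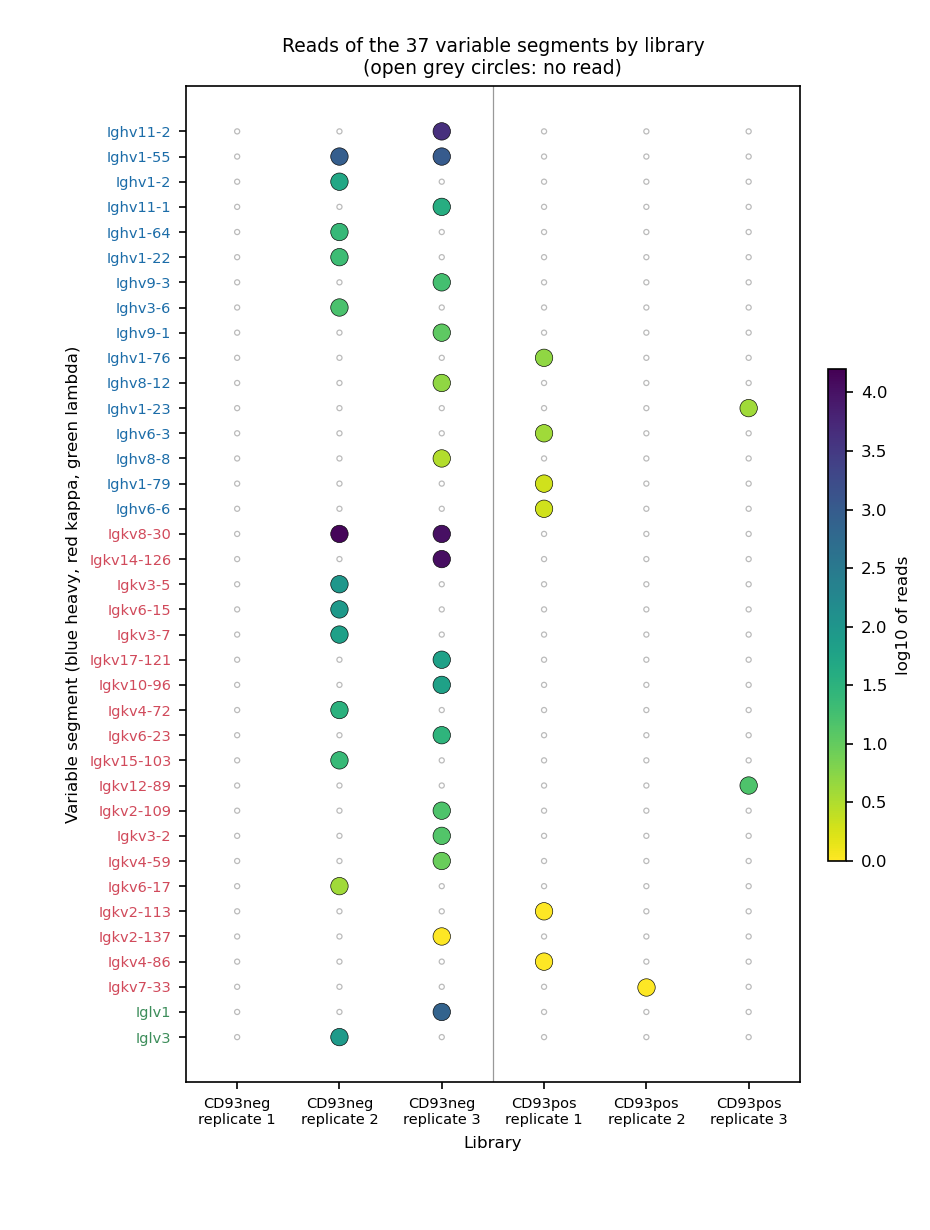
Each row is a variable segment, coloured by chain, and each column a library; filled circles give the log10 of its reads and open grey circles mark no read. Reads of 28 segments lie in CD93neg replicates 2 and 3, those of 9 others in the CD93pos libraries, and only Igkv8-30 and Ighv1-55 are read in 2 libraries.

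Of the 37 segments, 28 were read in a CD93neg library, 9 in a CD93pos library and 0 in both groups. Just inside the rule were 4 segments with a single read (Igkv2-113, Igkv2-137, Igkv4-86 and Igkv7-33), and just outside it the 311 with none. In all, 13 segments had under 10 reads, 19 had 10 to 100 and 5 had over 500, with none between 100 and 500. Intervals and limits given here cover counting error only, since reads of amplified libraries are not independent molecules.

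Heavy chain segments contribute the larger part of the binding site. They made up 16 of the 37, out of 185 in the table, and had 0, 1009 and 5399 reads in the CD93neg libraries. Ighv1-55 (ENSMUSG00000095589.2) had 898 reads in CD93neg replicate 2 and 1035 in replicate 3, or 89% of the heavy segment reads of replicate 2 (95% Clopper-Pearson interval 86.9% to 90.9%), and no read in the other 4 libraries. It belongs to Ighv1, the largest heavy subgroup, of whose 93 segments 7 were read. Ighv11-2 (ENSMUSG00000096108.2) had 4289 reads in CD93neg replicate 3, 79.4% of its heavy segment reads (interval 78.3% to 80.5%), and none elsewhere. Ighv11-1, the other segment of that subgroup, had 38 reads in the same library and none elsewhere. It differs from Ighv11-2 by 4 of 307 bases, so the division of reads between them is uncertain.

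The other heavy segments of CD93neg replicate 2 were Ighv1-2, Ighv1-64, Ighv1-22 and Ighv3-6, with 50, 24, 21 and 16 reads. Those of CD93neg replicate 3 were Ighv9-3, Ighv9-1, Ighv8-12 and Ighv8-8, with 18, 11, 5 and 3 reads. None of these 8 was read in another library. Ighv1-2 is annotated as a pseudogene, overlaps the microRNA gene Mir7094-1 on the same strand, and is the only pseudogene segment read in CD93neg.

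Kappa segments form most light chains in the mouse. They made up 19 of the 37, out of 160 in the table, with 0, 14140 and 22046 reads in the CD93neg libraries. Igkv8-30 (ENSMUSG00000076577.2) had 13830 reads in CD93neg replicate 2, 97.8% of its kappa segment reads (interval 97.6% to 98%), and 10733 in replicate 3. It had no read in the other 4 libraries. Igkv14-126 (ENSMUSG00000094345.2) had 11117 reads in CD93neg replicate 3, 50.4% of its kappa segment reads (interval 49.8% to 51.1%), and none elsewhere. The kappa reads of replicate 3 were thus divided almost evenly between Igkv14-126 and Igkv8-30. As background, the pair of Ighv11-2 with Igkv14-126 is known from innate-like B cells of the mouse peritoneum, where it forms an antibody to phosphatidylcholine.

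No other kappa segment exceeded 100 reads in any library. In CD93neg replicate 2 these were Igkv3-5, Igkv6-15, Igkv3-7, Igkv4-72, Igkv15-103 and Igkv6-17, with 94, 89, 67, 33, 23 and 4 reads. In CD93neg replicate 3 they were Igkv17-121, Igkv10-96, Igkv6-23, Igkv2-109, Igkv3-2, Igkv4-59 and Igkv2-137, with 66, 62, 29, 15, 14, 9 and 1 reads. The 13 segments were each read in a single library. Igkv4-59 had the fewest stretches of 50 bases of its own, 25.7%, so its reads are the least certain in their assignment.

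Lambda segments, of which the table holds 3, were read in both libraries, but a different segment in each. Iglv1 (ENSMUSG00000076934.2) had 747 reads in CD93neg replicate 3 and Iglv3 (ENSMUSG00000076939.2) had 85 in CD93neg replicate 2, with none elsewhere, and Iglv2 was unread. In the annotation Iglv1 lies on the side of the constant genes Iglc3 and Iglc1, and Iglv3 beyond Iglc2. Iglc1 had 103 and 1009 reads in CD93neg replicates 2 and 3, Iglc2 had 391 and 140, and Iglc3 had 243 and 72. The library with Iglv1 thus had most lambda constant reads on Iglc1, and the library with Iglv3 on Iglc2, although Iglc2 and Iglc3 are near-identical copies between which reads are uncertain. Iglv1 overlaps 2010309G21Rik on the opposite strand, and no source used here states the strand setting of the counting, so their reads cannot be told apart.

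The 35 segment reads of the CD93pos libraries fell on 9 segments, each read in a single library. CD93pos replicate 1 had 5 reads of Ighv1-76, 4 of Ighv6-3, 2 each of Ighv6-6 and Ighv1-79, and 1 each of Igkv2-113 and Igkv4-86. CD93pos replicate 2 had 1 read of Igkv7-33. CD93pos replicate 3 had 15 reads of Igkv12-89 and 4 of Ighv1-23. The segments Ighv1-79 and Igkv2-113 are annotated as pseudogenes, as were 130 of the 348 in the table. Over all libraries 2.31% of pseudogene segments and 15.6% of the others were read.

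The reads were unevenly spread over the segments. The effective number of segments, the exponential of the Shannon entropy, which equals the number read when all have the same share, was 1.55 in CD93neg replicate 2 and 3.68 in replicate 3, against 13 and 17 segments read. Pielou's evenness, which is 1 for equal shares, was 0.171 and 0.46. Within the heavy chain the effective number was 1.63 and 1.78, and within the kappa chain 1.15 and 2.12. The largest share of all segment reads was 90.8% for Igkv8-30 in replicate 2 (interval 90.3% to 91.2%) and 39.4% for Igkv14-126 in replicate 3 (interval 38.9% to 40%). Without the leading segment of each chain the effective number was 7.76 in replicate 2 and 1.56 in replicate 3, where Igkv8-30 and Ighv1-55 then led. In CD93pos replicate 1 it was 5.04 over 6 segments, from 15 reads.

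**Figure D2:**
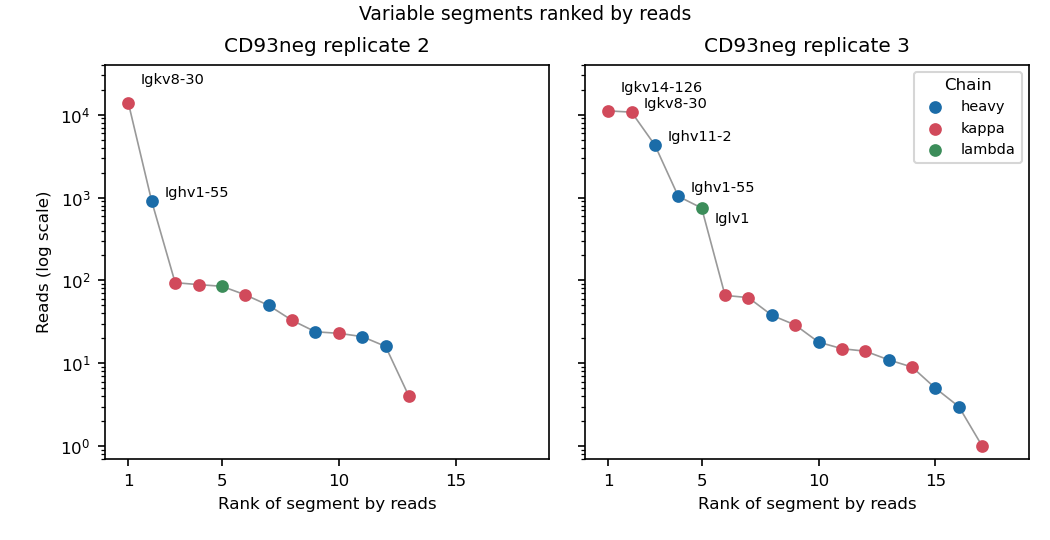
Segments read in CD93neg replicates 2 and 3 are ranked by their reads, on a log axis, and coloured by chain, with those over 500 reads named. In replicate 2, Igkv8-30 and Ighv1-55 stand above 11 segments with 4 to 94 reads, and in replicate 3, 5 segments stand above 12 with 1 to 66 reads.

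Igkv8-30 and Ighv1-55 were the only segments read in more than 1 library, and both were read in the same 2. They are 15.4% of the 13 segments of CD93neg replicate 2 and 11.8% of the 17 of replicate 3. They held 96.7% of the segment reads of replicate 2 and 41.7% of those of replicate 3. Of all other genes read in replicate 2, 8574 of 10739, or 79.8%, were also read in replicate 3, and the same 8574 were 71.4% of the 12012 of replicate 3. Among genes with 1 to 100 reads, where most segments lie, 0 of 11 segments of replicate 2 and 0 of 12 of replicate 3 were read in the other library, against 62.2% and 57.4% of other genes. Of T cell receptor variable segments, the counterpart in T cells, 0 of 1 in replicate 2 and 0 of 3 in replicate 3 were read in the other. These shares are descriptions, since the rule itself uses whether a segment is read. By V subgroup the overlap was larger: 5 subgroups were read in both libraries, 62.5% of the 8 of replicate 2 and 38.5% of the 13 of replicate 3.

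**Figure D3:**
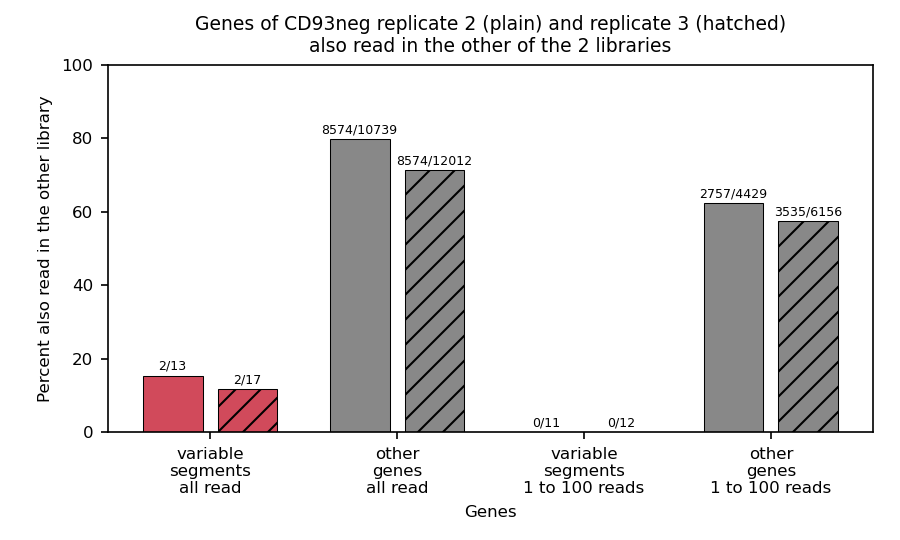
Bars give the percent of genes read in CD93neg replicate 2 (plain) or replicate 3 (hatched) that were also read in the other of these libraries, for variable segments and for all other genes, over all genes read and over those with 1 to 100 reads, with counts above each bar. Segments stand at 15.4% and 11.8%, and at 0% among those with 1 to 100 reads, beside 57.4% to 79.8% for other genes.

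The heavy locus lies on chromosome 12 and the kappa locus on chromosome 6. Counting from the joining segments, Ighv11-2 was number 43 and Ighv1-55 number 141 of 185, at 618 and 1778 kb, while Igkv8-30 was number 31 and Igkv14-126 number 147 of 160, at 605 and 2826 kb. Read heavy segments lay 552 to 2458 kb from the joining segments, with a median of 1178 kb, and unread ones 143 to 2580 kb, with a median of 1217 kb. The nearest heavy segment read was Ighv11-1, number 39 of 185, and none closer to the joining segments had a read. Read kappa segments lay 23.5 to 3166 kb away, with a median of 1495 kb, and unread ones 18.4 to 3128 kb, with a median of 1479 kb. The heavy segments of CD93neg replicate 3 nearest to the joining segments were Ighv11-1, Ighv11-2, Ighv9-1 and Ighv9-3, between 552 and 711 kb.

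**Figure D4:**
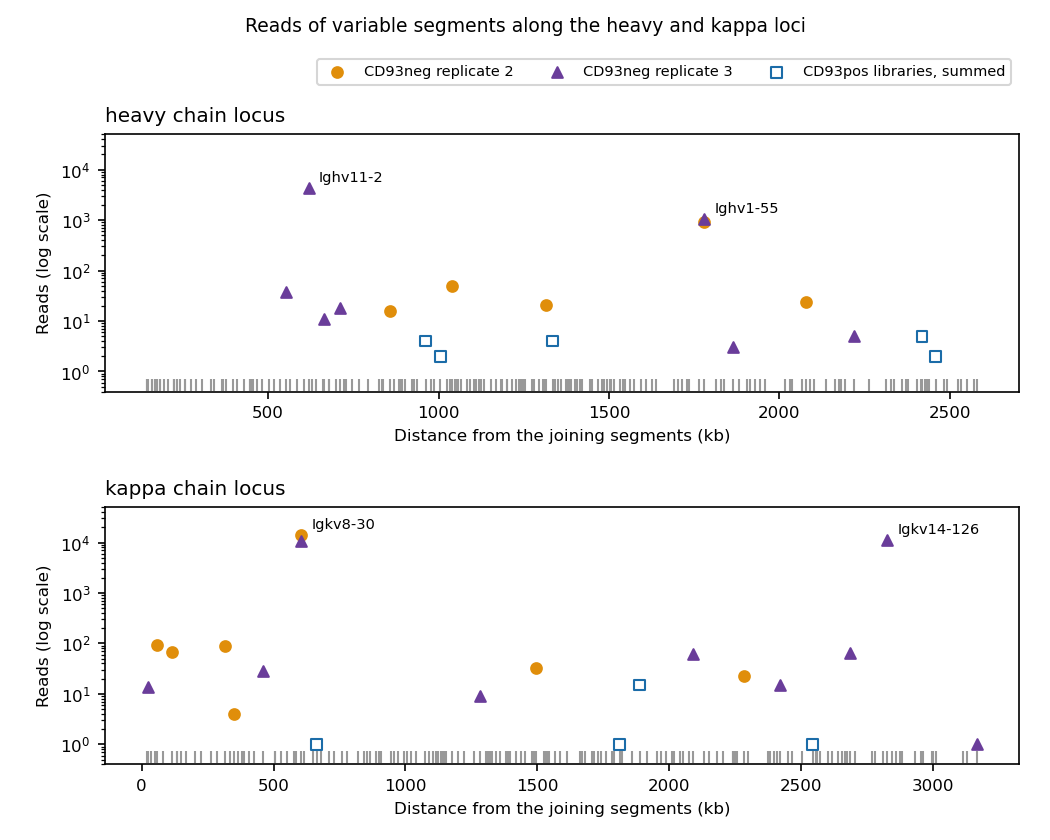
The x axis gives the distance of each segment from the nearest joining segment in kb and the y axis its reads on a log scale, for the heavy (top) and kappa (bottom) loci; circles are CD93neg replicate 2, triangles CD93neg replicate 3, open squares the summed CD93pos libraries, and grey ticks along the base all annotated segments. Ighv11-2 lies at 618 kb, Igkv8-30 at 605 kb, Ighv1-55 at 1778 kb and Igkv14-126 at 2826 kb,. Heavy segments closer than 552 kb are unread.

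No segment passed the test between CD93pos and CD93neg. Of the 37, 11 had a mean normalized count of at least 10 and were tested, and each passed that filter through CD93neg reads alone, so its direction was fixed by the filter. limma called 0 of the 11 at an adjusted p under 0.05, and 0% of all 11805 tested genes. At an unadjusted p under 0.05 it held 2 of the 11, Igkv8-30 and Ighv1-55, against 12.2% of all tested genes (1391 higher and 45 lower in CD93pos). Igkv8-30 had normalized counts of 9977 ± 8828 in CD93neg (SD, n = 3) and 0 in each CD93pos library. On the log2(normalized count + 1) scale its log2 fold change was -9.24 (SE 3.53, limma adjusted p = 0.327). Ighv1-55 had 824 ± 809 in CD93neg and 0 in each CD93pos library, with -6.80 (SE 2.71, limma adjusted p = 0.352). The other 9 tested segments, each read in a single library, had log2 fold changes of -4.69 (Igkv14-126) to -2.01 (Igkv3-7), with limma adjusted p-values of 0.6 to 0.631. CD93neg replicate 1 had no read of any segment, so the groups overlapped in 11 of the 11, whereas they did not overlap for 20.2% of all tested genes. With that library left out, Igkv8-30 stood at -13.86 on the log2 scale (limma adjusted p = 0.0667). Leaving out CD93neg replicate 2 or 3 instead gave -7.02 and -6.84 (limma adjusted p = 0.434 and 0.383). Dropping CD93pos replicate 1, 2 or 3 left Igkv8-30 at -9.24 (limma adjusted p = 0.825, 0.733 and 0.781). Summed CD93neg libraries were also set against a floor of 3 reads over the summed CD93pos libraries. By counting error alone, the CD93pos sum lay at least 17595-fold lower for Igkv8-30 and 1385-fold lower for Ighv1-55. Leaving out CD93pos replicate 1 reduced the limits to 10144-fold and 798-fold. Leaving out CD93neg replicate 3 gave 903-fold for Ighv1-55. Such limits ignore the spread between libraries, although CD93neg replicate 1 had no read of either segment. They set no minimum for a difference between the groups, and the filter had fixed their direction.

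edgeR on the recovered reads called 0 of the 11 segments. DESeq2 on those reads called 4, as did the authors' deposited table, in which 5.97% of 11813 genes with an adjusted p were under 0.05. In the authors' deposited table these were Igkv8-30 (adjusted p = 5.3e-22), Igkv10-96 and Igkv17-121 (adjusted p = 6.33e-10 each) and Ighv1-55 (adjusted p = 0.00094). Igkv10-96 and Igkv17-121 rest on 62 and 66 reads of CD93neg replicate 3 alone. Igkv14-126, Ighv11-2 and Iglv1, with 11117, 4289 and 747 reads in the same library alone, have no p-value in the authors' deposited table. They could therefore not be called there. Their log2 fold changes of -29.36, -28.06 and -25.67 stand against no read in any CD93pos library, so their size cannot be estimated. Of the 37 segments, 31 have a p-value and 10 an adjusted p there.

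Constant genes, which every rearranged chain includes, were read mainly in the same libraries. Igkc, the kappa constant gene, had 0, 28862 and 42962 reads in the CD93neg libraries and 0, 0 and 176 in the CD93pos libraries (limma adjusted p = 0.48). Ighm, which encodes the IgM heavy chain, had 0, 20727 and 57889 reads against 101, 171 and 173 (limma adjusted p = 0.637). In CD93pos replicate 2 the 171 Ighm reads stood beside 0 reads of heavy segments. Of the 13 constant genes 7 were read and tested, and limma called 0 of them, as it called 0 of all 11805 tested genes. Ighd had 232 and 616 reads in CD93neg replicates 2 and 3, Ighg3 had 216 in replicate 2 alone, and Ighg1, Ighg2b, Ighg2c, Igha and Ighe had none in any library. Lambda constant genes made up 2.49% of light chain constant reads in CD93neg replicate 2 and 2.76% in replicate 3.

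The ratio of variable segment to constant reads was close between the libraries for kappa and less so for the other chains. Kappa segments had 0.49 and 0.513 reads for each Igkc read in CD93neg replicates 2 and 3. Heavy segments had 0.0477 and 0.0923 for each heavy constant read, and lambda segments 0.115 and 0.612 for each lambda constant read. Per length, as RPKM (CPM per kilobase of exon), the kappa segments stood at 8327 and 20231 and Igkc at 11757 and 26891. Heavy segments stood at 533 and 3999 RPKM and their constant genes at 2427 and 10329. Of the 34 joining and diversity segments 7 were read, in CD93neg replicates 2 and 3 only. Igkj1 had 55 and 30 reads there, Igkj4 had 27 in replicate 3 alone, and Ighj1 had 1 and 44.

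**Figure D5:**
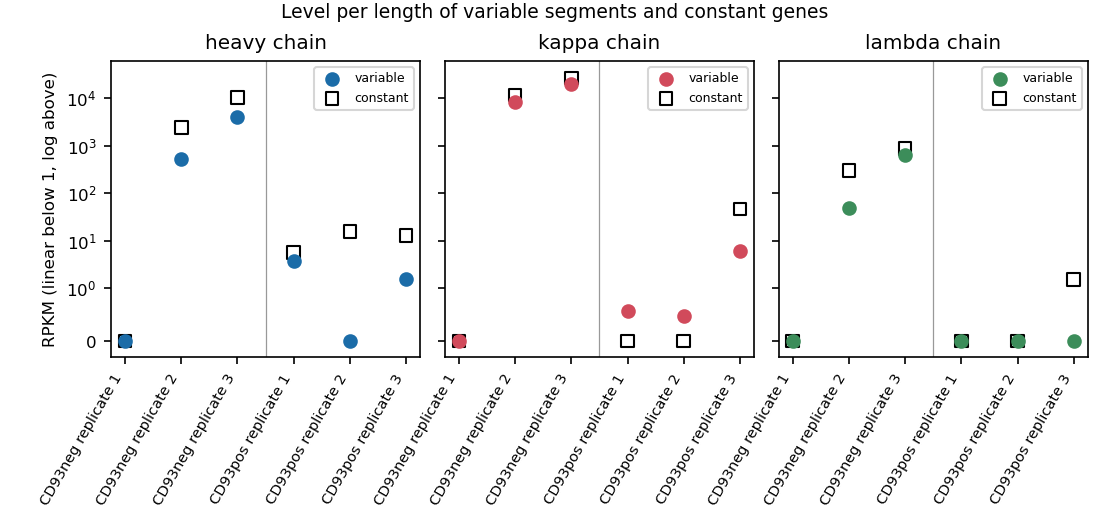
Filled circles give the summed RPKM of variable segments and open squares that of constant genes in each library, by chain, on an axis that is linear below 1 and logarithmic above. In CD93neg replicates 2 and 3 kappa segments stand at 8327 and 20231 RPKM, close below Igkc, and in CD93neg replicate 1 every point is at 0.

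Some markers of other cells were high in the same libraries as the segments and others were not, and their part in the results was not tested. The 12 B lineage markers summed to 0.706, 454 and 605 CPM in the CD93neg libraries and 51.9 to 68.6 in CD93pos, with 2, 6 and 10 of them read in the former and 4, 2 and 3 in the latter. Cd79a and Ms4a1, which mark B cells, had 361 and 468 reads in CD93neg replicate 2, 288 and 278 in replicate 3, and none in the other 4 libraries. Cd79b, the partner of Cd79a in the B cell receptor, had 0, 786 and 340 reads in CD93neg and 584, 364 and 349 in CD93pos (log2 fold change 1.80, limma adjusted p = 0.735), and made up most of the B lineage CPM of the CD93pos libraries. Cr2 was read only in CD93pos, with 34, 0 and 8 reads, and Blnk had 1, 0 and 19 reads in CD93neg and 25, 1 and 14 in CD93pos. Jchain, which links IgM into polymers in plasma cells, had 0, 5540 and 8001 reads in CD93neg and 0, 0 and 8 in CD93pos (limma adjusted p = 0.417). Mzb1 and Tnfrsf17, also of plasma cells, had 130 and 110 reads in CD93neg replicate 2 and 260 and 84 in replicate 3, while Sdc1 and Prdm1 had none there. The 10 plasma cell markers, 9 of them found in the table, summed to 1339, 1734 and 3590 CPM in CD93neg and 298 to 553 in CD93pos, with Jchain leading in CD93neg replicates 2 and 3 and Xbp1, which other cells also express, in the other 4 libraries. The 8 precursor B markers, which include Rag1 and Rag2, stood at 0 to 12.8 CPM in CD93neg and 1.58 to 9.65 in CD93pos. Neutrophil markers, 8 of 8 read in CD93neg replicates 2 and 3, summed to 0, 11929 and 8373 CPM in CD93neg and 2.93 to 267 in CD93pos. The 9 T cell markers summed to 0.353, 14.5 and 0 CPM in CD93neg and 21.2, 33.7 and 24.5 in CD93pos. Each CD93pos library stood above each CD93neg library. Among all tested genes the groups did not overlap for 20.2%, and 79.9% had a positive log2 fold change. Lck, a kinase of the T cell receptor pathway, had no read in CD93neg and 163, 110 and 104 reads in CD93pos (log2 fold change 6.24, limma adjusted p = 0.0558). It gave 17.1, 19 and 14.5 CPM of the CD93pos sums, and Cd4 gave 14.7 CPM in CD93pos replicate 2. Cd3d, Cd3e, Cd3g, Cd8a, Trbc1 and Trbc2 were at most 3.63 CPM in any library. Trac had 0, 66 and 0 reads in CD93neg and 2, 0 and 29 in CD93pos (log2 fold change -0.274, limma adjusted p = 0.946).

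Of the genes that assemble and alter the segments, none was called, and limma called 0 of all 11805 tested genes. Rag1 and Rag2, the recombinase, and Igll1, of the precursor receptor, had no read in any library. Other precursor B markers differed in where they were read. Vpreb1 was found in CD93pos alone, with counts per replicate of 7, 47 and 16. Vpreb3 was found in CD93neg alone, in replicate 2 (48 reads) and replicate 3 (3 reads). Of the 14 recombination and end joining genes 10 were tested and limma called 0. Of these 10, 8 had a positive and 2 a negative log2 fold change, beside 79.9% positive among all tested genes. The median of the 10 was 1.53, against 2.36 over all tested genes. The smallest p-values among them were those of Prkdc and Dclre1c, which open the hairpin ends, of Xrcc5, which binds broken ends, and of Hmgb2, which bends DNA for the recombinase, with log2 fold changes of 5.66, 5.21, 5.98 and 1.03 (limma adjusted p = 0.262, 0.276, 0.312 and 0.466). Of the 6 hypermutation and switching genes 5 were tested and 0 called. Pou2f1 and Pou2f2, which bind the octamer of variable promoters, had log2 fold changes of 2.60 and 0.66 (limma adjusted p = 0.624 and 0.888), and their coactivator Pou2af1 had 11 reads in CD93neg replicate 3 alone.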

How the data were processed

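RNA sequencing libraries of 3 CD93pos and 3 CD93neg HSC samples were grouped by their titles in the labels. Per the submitters' processing notes, STAR, featureCounts (Subread 1.5.0-p1) and DESeq2 1.26 were used, with the builds GRCm38 and mm10. The sources used here give no annotation release or strand setting. One table deposited by the authors holds a signal per gene and library, namely counts after division by the library's size factor. The other table the authors deposited holds their comparison: mean signal, log2 fold change, its error, a Wald score, p-value and adjusted p-value. Symbols came from that table.

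Undoing that division gave whole reads for 100% of nonzero values (tolerance 0.001). Total reads were 2832653 to 9509304 per library, so 1 read is 0.105 to 0.353 CPM. The limma 3.58.1 test took genes whose normalized counts averaged 10 or more (two-sided, trend) on log2(normalized count + 1), adjusted by Benjamini-Hochberg over 11805 genes at 0.05. Such fold changes understate low genes and depend on the pseudocount where libraries are at 0. On the recovered reads, edgeR 4.0.16 called 0 genes and DESeq2 1.42.0 called 705. The limma and edgeR fits were tested on simulated data, where both recovered the changed genes at a low spread between libraries and none of them at a high spread. All 348 segments matched GENCODE M21 by ID. It gave positions, classes, exon lengths and sequences, aligned with Biopython 1.88. Promoter octamers and recombination signals were not analysed here.

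Segments named were, in libraries with at least 10 read, the leading 5 heavy, 5 kappa and 3 lambda, and otherwise all read, those read in 3 or more libraries (none), the 7 with the smallest p, and the constant genes. Up to 4 genes with the smallest p were named per other list. The remaining members and marker genes were named after their values were seen. The members and lists were chosen with earlier results of these data known.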

Additional observations from a re-analysis of the deposited data

How the results depend on the processing

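limma called 0 of the tested variable segments under each pseudocount, filter and scaling tried, with the replicate block and without each library in turn, and edgeR called 0 as well. DESeq2 called 4. Over all genes limma called 0, DESeq2 705, a pseudocount of 0.5 gave 206 and the replicate block 24, and leaving out 1 library gave 0 to 1873 (1873 without CD93neg replicate 3, 707 without CD93pos replicate 2, 1 without CD93neg replicate 1). Same-numbered libraries did not deviate together (correlations of 0.0372, 0.0191 and 0.0605). This cannot decide whether they shared animals or a sort, because the labels do not say so.

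The difference in segments read per library (CD93pos minus CD93neg) was -7, and -12 to -3.5 without 1 library. It was -3.5 without CD93neg replicate 3 and -12 without CD93neg replicate 1. In CPM the difference in segment reads was -4228, ranging from -6343 without CD93neg replicate 1 to -1649 without CD93neg replicate 3, and -19512 on the authors' scale of normalized counts, another unit. Merging segments to V subgroups raised the overlap to 62.5% of replicate 2 and 38.5% of replicate 3. The effective number in CD93neg replicate 2 was 1.21 as an inverse Simpson number, 7.76 without the leading segments, 1.5 by subgroup and 1.52 without pseudogenes. In replicate 3 the first 3 of these were 3.07, 1.56 and 3.65. CD93neg replicate 1 had 2832653 assigned reads, near the 3003095 of replicate 3, but reads for 4429 genes against 12029. This limits what its 0 reads can show. A single read can come from a near-identical segment.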

Other observations

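T cell receptor variable segments, the counterpart of the immunoglobulin segments in T cells, were read mainly in other libraries. Most of them, like most immunoglobulin segments, were read in a single library. Of the 170 known to the table, 14 were read (8.24%), with 414 reads in all. Trbv13-2 had 123, 50 and 84 reads in CD93pos replicates 1, 2 and 3 and 0, 0 and 12 in the CD93neg libraries. Trbv12-2 had 37, 7 and 5 against 0, 0 and 8. These 2 were the only T cell receptor segments read in 2 or more libraries, and each was read in all CD93pos libraries, where no immunoglobulin segment was read in more than 1. Summed over all, they had 14.1 to 20.7 CPM in CD93pos and 0 to 7.33 CPM in CD93neg. The difference between both kinds of segment was not tested.

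As CPM, Igkv8-30 was at 2997 and 3574 in CD93neg replicates 2 and 3 and Ighv1-55 at 195 and 345. Whether the reads of both libraries carry the same junctions was not analysed here.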
